A study of Mus musculus with 20 samples.

Results

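The genes described here are 8 secreted or cell-surface products of fibroblasts: the small leucine-rich proteoglycans Fmod, Dcn, Lum and Bgn, the matricellular protein periostin (Postn), the secreted Frizzled-related protein Sfrp2, and the heparan sulfate proteoglycans perlecan (Hspg2) and syndecan-4 (Sdc4). They were found by symbol among the 45706 genes of the count table. They had been chosen because their difference between the study's 2 genotypes varied with the agent or with stimulation in these same libraries, so that difference is given below as a description with no test. The RNA came from primary mouse embryonic fibroblasts of the C57BL/6 strain. Both genotypes are deleted for c-Rel, an NF-kB subunit. The control, written crel-/-, carries that deletion alone, and the knock-in, written crel-/-RelA-TA-KI, also carries an altered allele of RelA whose abbreviation the labels do not spell out. Cells were starved overnight in low serum and then left unstimulated (0 h) or given IL-1b at 10 ng/ml, TNF at 10 ng/ml or LPS at 100 ng/ml for 0.5, 1 or 3 h. Each combination of genotype, agent and time is 1 library, 20 in all, and the labels state no separate cultures or clones, and every p-value below reflects the spread among these libraries alone, which may be technical.

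Proteoglycans are proteins that carry long sulfated sugar chains. Decorin and biglycan carry chondroitin or dermatan sulfate, lumican and fibromodulin carry keratan sulfate, and these 4 small leucine-rich proteoglycans bind collagen and shape its fibrils. Periostin links collagen to other matrix proteins and to integrins, and Sfrp2 binds Wnt ligands and modulates their signalling. Perlecan is a very large heparan sulfate proteoglycan of basement membranes and pericellular matrix. Syndecan-4 spans the plasma membrane, where its heparan sulfate chains bind growth factors and chemokines and its core protein acts with integrins at focal adhesions. IL-1b, TNF and LPS all activate NF-kB, of which RelA is a main activating subunit.

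Library totals were 9248151 to 12574135 counts, and all 8 genes passed the filter for testing (at least 1 CPM, counts per 1e6 of the scaled library total, in at least 2 libraries), as did 14023 genes in all. The lowest count of any of the 8 genes in any library was 602, for Sfrp2. All 8 fibroblast markers were expressed, with median levels up to 22106 CPM for Col1a1. Macrophage markers were present too: 8 of 8 were tested, and their summed level was 1718 to 3837 CPM. In bulk RNA, fewer cells of a type and less RNA per cell cannot be told apart. Both Rel and Rela had reads in every library, but a count over the whole gene does not show a deleted or altered part and so does not check the genotype labels.

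The libraries fell into sets that matter for every result below. The 0 h and TNF libraries stood apart from the IL-1b and LPS libraries already at 0.5 h, in both genotypes. The summed level of mitochondrially encoded transcripts was 7068 to 10575 CPM in the 4 control libraries at 0 h or with TNF and 12699 to 18440 CPM in the 6 control libraries with IL-1b or LPS. In the knock-in it was 6963 to 10078 CPM and 13882 to 17904 CPM. The summed macrophage markers went the other way, at 3261 to 3837 against 1918 to 3165 CPM in the control and 2684 to 3521 against 1718 to 2106 CPM in the knock-in. Neural and Schwann cell markers were few but also lower with IL-1b and LPS, at 12.2 to 19.2 CPM against 31.7 to 65.5 CPM in the control and 5.78 to 6.94 CPM against 19.5 to 26.1 CPM in the knock-in. Of the neural markers Gfap was highest, up to 54.1 CPM. Skeletal muscle, fat and pericyte marker sums were also lower with IL-1b and LPS, without overlap in either genotype. Control sums were 8.77 to 11.1 against 22.8 to 24.4 CPM (muscle) and 273 to 410 against 449.5 to 502 CPM (fat). Knock-in sums were 12.6 to 18.5 against 23.3 to 30.0 CPM and 212 to 328 against 524 to 640 CPM. Pericyte sums were 12.1 to 19.6 against 29.1 to 37.2 CPM and 27.8 to 35.3 against 48.9 to 64.2 CPM. The fat sum was mostly Lpl (205 to 632 CPM), with Adipoq at 0 and Plin1 at most 0.09 CPM. The muscle sum was mostly Des (7.65 to 28.5 CPM), with Myod1 at most 0.08 and Myog at most 0.29 CPM. The fat and muscle sums therefore do not show that fat or muscle cells were present. No label names a batch, so the agent and the set of libraries cannot be told apart. Contrasts that stay within a set are TNF against 0 h, LPS against IL-1b, and 3 h against 0.5 h. The contribution of these markers to the results was not tested.

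**Figure D1:**
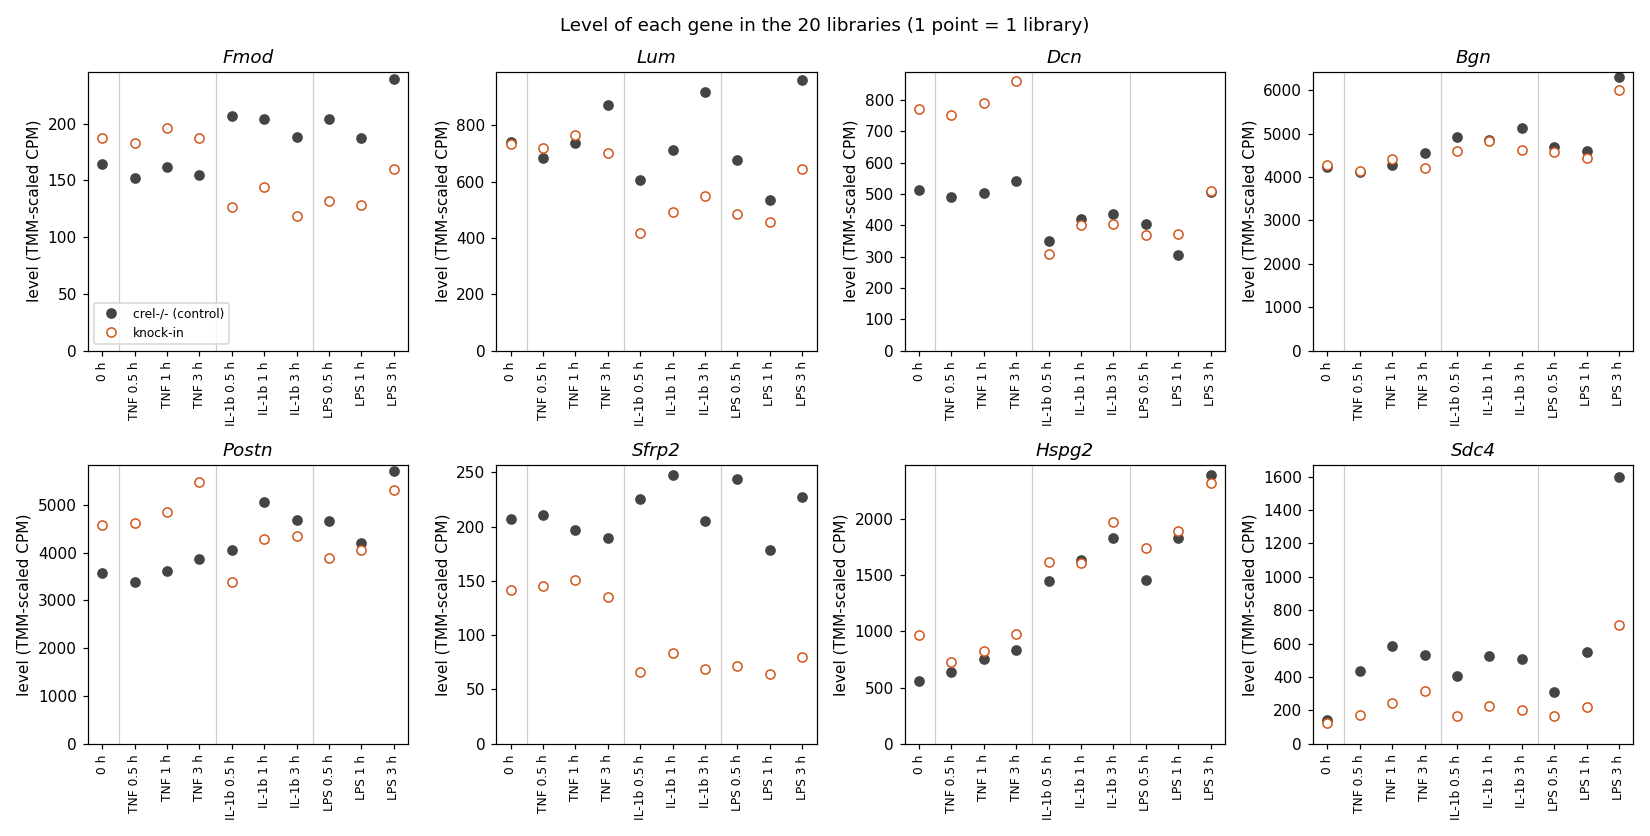
Levels of the 8 genes (y axes, TMM-scaled CPM, each starting at 0) in the 20 libraries (x axes, unstimulated, then TNF, IL-1b and LPS by hour), with filled points for crel-/- and open points for the knock-in. Knock-in Fmod lies above the control at 0 h and with TNF and below it with IL-1b and LPS, knock-in Sfrp2 lies below the control in all 10 pairs, and Hspg2 is highest in the LPS 3 h libraries of both genotypes.

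Compared per kilobase of the gene length in the deposited table, Bgn was the most abundant of the 8, with a median level over the 20 libraries of 752 CPM per kb and a range of 676 to 1036. Postn followed at 496 CPM per kb (390 to 656), and its range did not overlap that of Bgn. Lum had a median of 334 CPM per kb (202 to 464) and Dcn of 222 (146 to 413). Below them came Sdc4 at 123 CPM per kb (48.0 to 627), Hspg2 at 107 (39.2 to 167), Sfrp2 at 76.5 (29.9 to 115) and Fmod at 52.7 (35.9 to 72.5). From Postn down, the ranges of neighbours in this order overlapped. The order of the last 4 turned with genotype: in the control Sdc4 was at a median of 203 CPM per kb, Hspg2 at 102, Sfrp2 at 97.0 and Fmod at 56.9, whereas in the knock-in Hspg2 at 113 was above Sdc4 at 83.0 and Fmod at 46.0 was above Sfrp2 at 38.1. The genes lie on 6 chromosomes (build mm10), with Dcn (chromosome 10, 97479500 to 97518162) and Lum (chromosome 10, 97565501 to 97572703) next to each other on the plus strand, and with Postn and Sfrp2 far apart on chromosome 3.

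Sdc4 (ENSMUSG00000017009.3, chromosome 2, 164424247 to 164443887, minus strand) rose under all 3 agents, and most with LPS at 3 h, where its change was the largest of the 8 genes. The control had 140 CPM at 0 h. With IL-1b the control level was 405, 526 and 506 CPM at 0.5, 1 and 3 h, with TNF it was 434, 584 and 530 CPM, and with LPS it was 309, 550 and 1596 CPM. The knock-in had 122 CPM at 0 h, then 165, 227 and 204 CPM with IL-1b, 171, 246 and 319 CPM with TNF, and 165, 218 and 711 CPM with LPS. Every stimulated library was above the 0 h library of its genotype, and the LPS 3 h library was the highest of each.

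The 250 bases before the RefSeq start of Sdc4 (GRCm38.p6, chr2:164443189-164443438, minus strand) are shown because Sdc4 was the only one of the 6 genes with a RefSeq promoter entry whose window held a match to the NF-kB consensus. The match, GGGGAATTCC, is in capitals and lies 82 to 73 bases before the start. Because the deposited gene extends to position 164443887, the window lies within the gene's span in the count table. The same stretch before Hspg2 (chr4:137468553-137468802, plus strand), the other gene that passed the test at 0.5 h, held none.
Sdc4: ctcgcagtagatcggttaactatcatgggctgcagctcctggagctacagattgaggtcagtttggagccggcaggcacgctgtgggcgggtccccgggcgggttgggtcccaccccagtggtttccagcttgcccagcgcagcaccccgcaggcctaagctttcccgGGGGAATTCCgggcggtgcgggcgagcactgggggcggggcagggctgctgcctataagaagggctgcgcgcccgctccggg
Hspg2: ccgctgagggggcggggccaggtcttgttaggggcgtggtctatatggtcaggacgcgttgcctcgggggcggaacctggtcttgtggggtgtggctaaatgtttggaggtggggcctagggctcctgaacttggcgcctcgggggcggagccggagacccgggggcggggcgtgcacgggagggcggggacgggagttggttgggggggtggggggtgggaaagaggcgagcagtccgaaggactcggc
The NF-kB consensus searched was 3 Gs, a purine, 2 free bases, 2 pyrimidines and 2 Cs, on both strands, and 7.25% of 32851 RefSeq promoter windows of this length held it. An AP-1 site (TGANTCA, both strands) was in 6.75% of windows and in none of those of Fmod, Bgn, Postn (2 starts), Sfrp2, Hspg2 and Sdc4. A match describes the letters only, and no binding was measured here.

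Averaged over both genotypes, Sdc4 rose at 0.5 h by a log2 fold change of 0.89 (SE 0.21, edgeR adjusted p = 0.0346) and at 1 h by 1.39 (SE 0.21, edgeR adjusted p = 0.00235), as means of the 3 agents against 0 h. At 3 h the log2 fold change was 2.97 with LPS (SE 0.26, edgeR adjusted p = 3.17e-06), 1.60 with TNF (SE 0.25, edgeR adjusted p = 0.000901) and 1.24 with IL-1b (SE 0.24, edgeR adjusted p = 0.00409). LPS exceeded IL-1b at 3 h by 1.72 (SE 0.24, edgeR adjusted p = 0.000171), a contrast within a set, and exceeded TNF by 1.36 (SE 0.24, edgeR adjusted p = 0.000774). IL-1b against TNF at 3 h gave -0.36 (SE 0.24, edgeR adjusted p = 0.342). With LPS alone, Sdc4 rose from 0.5 to 3 h by 2.24 (SE 0.25, edgeR adjusted p = 2.49e-05). For IL-1b and LPS against TNF at 0.5 h, where the library sets differ, the value for Sdc4 was -0.18 (SE 0.21, edgeR adjusted p = 0.65). The 0.5 h result rests on few libraries: without the control 0 h library it was 0.45 (edgeR adjusted p = 0.253), without the knock-in 0 h library it was 1.43, and it also missed the threshold without any one of 5 of the 6 libraries at 0.5 h, all but the TNF library of the knock-in. Without the control 0 h library, the IL-1b value at 3 h was 0.80 and still passed.

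**Figure D2:**
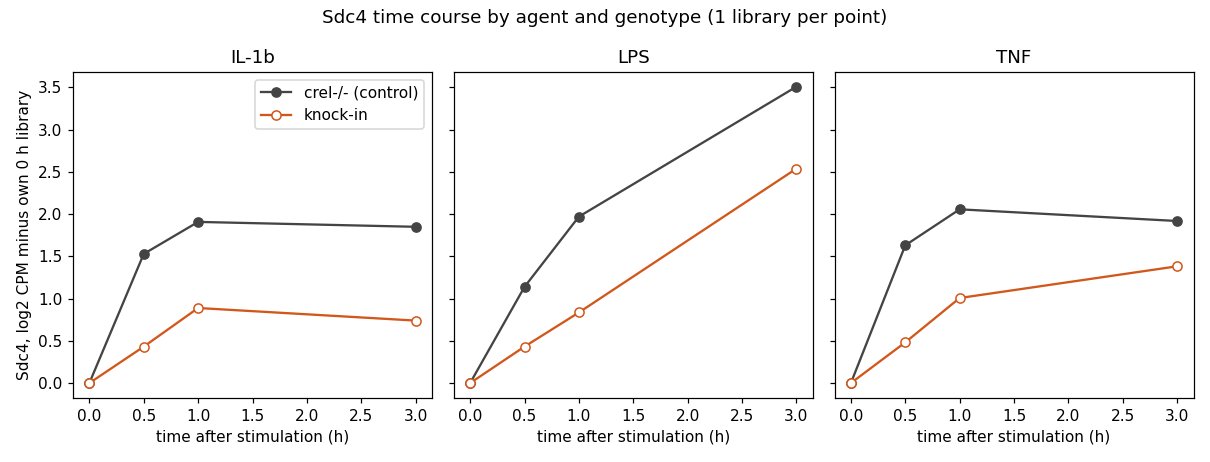
Sdc4 in log2 CPM minus the 0 h library of the same genotype (y axis) against hours after stimulation (x axis), 1 panel per agent, filled points for crel-/- and open points for the knock-in, 1 library per point. The control reaches 1.85 with IL-1b, 3.51 with LPS and 1.92 with TNF at 3 h, and the knock-in 0.74, 2.54 and 1.38.

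The genotypes, described without a test, had similar Sdc4 levels at 0 h and separated after stimulation. The knock-in minus control difference in log2 CPM was -0.20 at 0 h and between -1.34 and -0.73 in the 9 stimulated pairs, with a mean of -1.17 (SD 0.21, n = 9 pairs), a level 2.25-fold lower in the knock-in. The smallest stimulated difference was that of TNF at 3 h. Relative to its own 0 h library, the LPS 3 h level was 11.4-fold in the control and 5.81-fold in the knock-in, and the TNF 3 h level was 3.78-fold and 2.61-fold. The genes whose log2 CPM followed Sdc4 most closely over the 20 libraries, of 9493 genes with a mean of at least 10 CPM, were Birc3 (Pearson r 0.94), an inhibitor of apoptosis, Tnfaip2 (0.94) and the chemokine gene Cxcl10 (0.92). These correlations share the libraries and their scaling and are descriptive.

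Hspg2 (ENSMUSG00000028763.15, chromosome 4, 137468769 to 137570630, plus strand) was high in the IL-1b and LPS libraries from the earliest time. In the control it was at 560 CPM at 0 h and at 638, 759 and 838 CPM with TNF, but at 1449, 1631 and 1830 CPM with IL-1b and 1461, 1829 and 2389 CPM with LPS. The knock-in had 972 CPM at 0 h, 730, 824 and 973 CPM with TNF, 1617, 1611 and 1973 CPM with IL-1b, and 1741, 1893 and 2318 CPM with LPS. In both genotypes every IL-1b and LPS library lay above every 0 h and TNF library, with no overlap: the nearest levels of the sets were 838 and 1449 CPM in the control and 973 and 1611 CPM in the knock-in.

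At 0.5 h, IL-1b and LPS exceeded TNF for Hspg2 by a log2 fold change of 1.20 (SE 0.14, edgeR adjusted p = 0.000204). At 3 h against 0 h, Hspg2 rose by 1.65 with LPS (SE 0.15, edgeR adjusted p = 2.52e-06) and by 1.33 with IL-1b (SE 0.15, edgeR adjusted p = 0.000126), and at 3 h it was higher than with TNF by 1.39 with LPS (SE 0.15, edgeR adjusted p = 1.31e-05) and 1.07 with IL-1b (SE 0.15, edgeR adjusted p = 0.00076). All of these contrasts cross the library sets. Within the 0 h and TNF set, TNF at 3 h against 0 h gave 0.26 (SE 0.15, edgeR adjusted p = 0.198), a value that was -0.054 without the control 0 h library and 0.62 without the knock-in one (edgeR adjusted p = 0.00121). Within the IL-1b and LPS set, LPS against IL-1b at 3 h gave 0.31 (SE 0.15, edgeR adjusted p = 0.105), which was 0.33 and passed (edgeR adjusted p = 0.00464) when only those libraries were fitted. From 0.5 to 3 h, Hspg2 rose by 0.43 as a mean of the agents (SE 0.09, edgeR adjusted p = 0.00109) and by 0.56 with LPS alone (SE 0.15, edgeR adjusted p = 0.00685). The mean of the agents was 0.19 and missed the threshold with library totals in place of TMM scaling (edgeR adjusted p = 0.0579). The value with LPS alone was not recomputed with library totals. The mean of the agents against 0 h was 0.65 at 0.5 h (SE 0.13, edgeR adjusted p = 0.0121) and 0.83 at 1 h (SE 0.13, edgeR adjusted p = 0.00176). Without the control 0 h library these were 0.34 (edgeR adjusted p = 0.0912) and 0.52, and the former was 1.02 without the knock-in 0 h library.

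Hspg2 is among the longest transcripts measured, at 14307 bases in the deposited table. Between the library sets at 0.5 h (IL-1b and LPS against TNF), the median log2 fold change was 0.18 over the 319 genes longer than 14 kb. It was 0.06 over 2467 genes under 2 kb, -0.02 over 7971 genes of 2 to 6 kb and -0.00 over 3266 genes of 6 to 14 kb. The part of length in the Hspg2 value was not tested. The genes nearest to Hspg2 over the 20 libraries were Fbn1 (Pearson r 0.99), Col6a3 (0.99) and Fn1 (0.98), which encode fibrillin-1, a collagen VI chain and fibronectin. Between genotypes the largest Hspg2 difference was at 0 h, where the knock-in was 0.79 higher in log2 CPM. In the 9 stimulated pairs the difference was between -0.04 and 0.25, so the 0 h pair stands alone.

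Bgn (ENSMUSG00000031375.15, chromosome X, 73483602 to 73495933) was the least variable of the 8 between genotypes. Its level was 4122 to 4549 CPM in the 4 control libraries at 0 h or with TNF (the 0 h library at 4233) and 4600 to 6317 CPM in the 6 with IL-1b or LPS. The knock-in ranges were 4138 to 4408 CPM and 4451 to 5999 CPM. The highest library of each genotype was LPS at 3 h, and the library sets did not overlap in either genotype. The knock-in minus control difference was between -0.15 and 0.04 in the 10 pairs.

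Bgn rose with LPS at 3 h by a log2 fold change of 0.53 against 0 h (SE 0.05, edgeR adjusted p = 1.76e-06), of 0.34 against IL-1b (SE 0.05, edgeR adjusted p = 0.000152) and of 0.41 against LPS at 0.5 h (SE 0.05, edgeR adjusted p = 2.33e-05). With IL-1b at 3 h it rose by 0.20 against 0 h (SE 0.05, edgeR adjusted p = 0.0137). The values against 0 h and against IL-1b depend on the scaling. The LPS 3 h libraries had composition factors of 0.723 and 0.732, against 0.979 to 1.12 elsewhere, and with library totals in their place the median of all genes for LPS at 3 h against 0 h moved to -0.62. The Bgn values were then -0.070 (LPS against 0 h), -0.11 (LPS against IL-1b) and 0.04 (IL-1b against 0 h), and none passed. The value against LPS at 0.5 h was not recomputed with library totals. The Bgn mean of the agents from 0.5 to 3 h was -0.062 with them. The IL-1b value also missed the threshold without the control 0 h library (0.16, edgeR adjusted p = 0.113) or the control IL-1b 3 h library (0.14, edgeR adjusted p = 0.141). At 0.5 h, Bgn was higher by 0.19 with IL-1b and LPS than with TNF (SE 0.05, edgeR adjusted p = 0.0209). That value missed the threshold without any one of 4 of the 6 libraries compared, at 0.17 and 0.16 without the control IL-1b and TNF libraries and 0.18 and 0.21 without the knock-in LPS and TNF libraries. Over the 20 libraries Bgn was closest to Rnf213, Ep400 and Phf11d (Pearson r 0.97, 0.97 and 0.96).

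Dcn (ENSMUSG00000019929.13) was lower with IL-1b and LPS than with TNF at 0.5 h. The control had 513 CPM at 0 h, 489, 504 and 542 CPM with TNF, 349, 421 and 437 CPM with IL-1b, and 402, 305 and 506 CPM with LPS. The knock-in had 770 CPM at 0 h, 753, 791 and 862 CPM with TNF, 309, 401 and 404 CPM with IL-1b, and 369, 371 and 508 CPM with LPS. In the knock-in all 6 IL-1b and LPS libraries lay below the other 4, whereas in the control the sets overlapped. IL-1b and LPS against TNF at 0.5 h gave a log2 fold change of -0.77 over both genotypes (SE 0.20, edgeR adjusted p = 0.0359), a 1.71-fold lower level. This call was lost without any one of 4 of the 6 libraries compared: the control TNF library (-0.98, edgeR adjusted p = 0.0719), the knock-in TNF library (-0.55, edgeR adjusted p = 0.297), the knock-in IL-1b library (-0.66) and the knock-in LPS library (-0.67). With no filter on low counts the 0.5 h call was also lost (-0.78, edgeR adjusted p = 0.0787). At 3 h the value was -0.58 for IL-1b against 0 h (SE 0.24, edgeR adjusted p = 0.0908) and -0.71 for IL-1b against TNF (SE 0.24, edgeR adjusted p = 0.0719), and the latter was -0.46 without the knock-in TNF 3 h library. The former passed with upper-quartile scaling (-0.69, edgeR adjusted p = 0.0398), with library totals (-0.74, edgeR adjusted p = 0.03) and by DESeq2 (-0.59, adjusted p = 0.0446), and the latter by DESeq2 (-0.71, adjusted p = 0.0199) and limma-voom (-0.71, adjusted p = 0.0422). From 0.5 to 3 h, Dcn gave 0.31 (SE 0.14, edgeR adjusted p = 0.0815), a value that passed within the IL-1b and LPS libraries alone at 0.38 (edgeR adjusted p = 0.00144). It also passed without the control IL-1b 0.5 h, control TNF 3 h or knock-in TNF 0.5 h library, at 0.38 in each. The knock-in minus control difference was 0.58 to 0.67 in the 4 pairs at 0 h or with TNF and -0.17 to 0.28 in the 6 pairs with IL-1b or LPS. Nearest to Dcn were Ccn3 (Pearson r 0.98), a matricellular protein gene, Col14a1 (0.97), which encodes a fibril-associated collagen, and Dlk1 (0.96).

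Lum (ENSMUSG00000036446.4) rose from 0.5 to 3 h as a mean of the agents. Control levels were 742 CPM at 0 h, 683, 737 and 873 CPM with TNF, 606, 712 and 917 CPM with IL-1b, and 677, 536 and 963 CPM with LPS. Knock-in levels were 732 CPM at 0 h, 719, 768 and 702 CPM with TNF, 419, 491 and 550 CPM with IL-1b, and 485, 457 and 646 CPM with LPS. The 3 h library exceeded the 0.5 h library in 5 of 6 time courses, the exception being TNF in the knock-in. From 0.5 to 3 h, Lum rose by a log2 fold change of 0.37 (SE 0.11, edgeR adjusted p = 0.0111), and this was 0.23 (edgeR adjusted p = 0.0548) with upper-quartile scaling and 0.13 (edgeR adjusted p = 0.271) with library totals. Levels of IL-1b and LPS against TNF at 0.5 h differed by -0.39 (SE 0.16, edgeR adjusted p = 0.149), a value that was -0.61 without the control TNF library and -0.16 without the knock-in one. The knock-in minus control difference was -0.74 to -0.23 in the IL-1b and LPS pairs and -0.32 to 0.07 in the others. Its nearest genes were Slc1a3 (Pearson r 0.93), Colgalt1 (0.91), a collagen galactosyltransferase gene, and Rcn3 (0.91).

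Fmod (ENSMUSG00000041559.7, chromosome 1, 134037254 to 134048277) had the lowest median level per length in the control, and the genotypes changed order between the library sets. The control had 165 CPM at 0 h, 153, 162 and 155 CPM with TNF, 207, 204 and 188 CPM with IL-1b, and 204, 188 and 240 CPM with LPS. The knock-in had 187 CPM at 0 h, 183, 197 and 187 CPM with TNF, 127, 144 and 119 CPM with IL-1b, and 132, 128 and 160 CPM with LPS. IL-1b and LPS libraries were therefore above the others in the control and below them in the knock-in, without overlap in either. The knock-in minus control difference was 0.18 to 0.28 in the 4 pairs at 0 h or with TNF (mean 0.25, SD 0.05) and -0.70 to -0.50 in the 6 pairs with IL-1b or LPS (mean -0.60, SD 0.08). Averaged over genotype, Fmod passed in 0 of 10 contrasts by edgeR, DESeq2 or limma-voom, and edgeR gave no unadjusted p under 0.05. These contrasts cannot decide whether Fmod responds: the varying genotype difference for which it was chosen enters their spread. LPS against IL-1b at 3 h gave 0.38 (SE 0.30), a value that was 0.62 without the control IL-1b library, 0.21 without the control LPS library and 0.18 without the knock-in IL-1b library. It passed at 0.40 (edgeR adjusted p = 0.000652) when only the IL-1b and LPS libraries were fitted, as did Dcn at 0.29 (edgeR adjusted p = 0.0345). With library totals the Fmod value was -0.057 and that of Dcn -0.18. Its nearest genes were Eln, which encodes elastin (Pearson r 0.80), Megf6 (0.79) and Mfap2 (0.77), a microfibril component.

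Postn (ENSMUSG00000027750.14, chromosome 3, 54361109 to 54391037) had the same order of genotypes as Fmod at higher levels. In the control it was at 3566 CPM at 0 h, 3393, 3621 and 3866 CPM with TNF, 4057, 5064 and 4677 CPM with IL-1b, and 4663, 4192 and 5713 CPM with LPS. In the knock-in it was at 4573 CPM at 0 h, 4621, 4840 and 5474 CPM with TNF, 3393, 4274 and 4353 CPM with IL-1b, and 3892, 4052 and 5305 CPM with LPS. The library sets did not overlap in the control and overlapped in the knock-in. The genotype difference was 0.36 to 0.50 in the 4 pairs at 0 h or with TNF and -0.26 to -0.05 in the 6 pairs with IL-1b or LPS. From 0.5 to 3 h the value was 0.29 (SE 0.12, edgeR adjusted p = 0.0628). It passed within the IL-1b and LPS libraries (0.33, edgeR adjusted p = 0.000225). It also passed without the control IL-1b 0.5 h (0.35), LPS 0.5 h (0.35) or TNF 3 h library (0.36), and without the knock-in TNF 0.5 h library (0.36). Fitted within a set alone, Postn rose with TNF at 3 h against 0 h (0.18, edgeR adjusted p = 0.0195), and it was higher with LPS than with IL-1b at 3 h (0.30), where all libraries together gave 0.20 and 0.29 with no call. The choice of Postn by its genotype difference touches the p-values of the fits within a set. The TNF value over all libraries was 0.039 without the control 0 h library, 0.36 without the knock-in 0 h library, 0.41 without the control TNF 3 h library and -0.065 without the knock-in one, and LPS against IL-1b was -0.16 with library totals. Nearest to it were Sbf2 (Pearson r 0.82), Ikbkb (0.81), which encodes a kinase of the NF-kB pathway, and Nrk (0.81).

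Sfrp2 (ENSMUSG00000027996.11, chromosome 3, 83766321 to 83774316) was lower in the knock-in in 10 of 10 pairs. The control stayed between 179 and 247 CPM: 207 CPM at 0 h, 210, 197 and 189 CPM with TNF, 225, 247 and 205 CPM with IL-1b, and 243, 179 and 227 CPM with LPS. The knock-in had 142 CPM at 0 h and 145, 151 and 135 CPM with TNF, but 66.0, 83.6 and 69.3 CPM with IL-1b and 71.7, 64.4 and 80.3 CPM with LPS. The difference in log2 CPM had a mean of -0.49 (SD 0.07, n = 4 pairs) at 0 h or with TNF, a 1.40-fold lower level, and of -1.60 (SD 0.13, n = 6 pairs) with IL-1b or LPS, a 3.04-fold lower level. Within the control the library sets overlapped, and within the knock-in they did not. Averaged over genotype, Sfrp2 likewise passed in 0 of 10 contrasts by each of the 3 tools, with no unadjusted edgeR p under 0.05. The same limit holds for Sfrp2, whose genotype difference also enters the spread. The value for IL-1b and LPS against TNF at 0.5 h was -0.45 (SE 0.34). That value ranged with the library left out from -0.78 without the control TNF library to -0.09 without the knock-in TNF library, and was -0.29 without the knock-in IL-1b or LPS library. Sfrp2 was closest to Igfbp4 (Pearson r 0.93), a gene for an insulin-like growth factor binding protein, Aqp4 (0.90) and 1500015O10Rik (0.90). The gene overlaps Gm26771 on the opposite strand, which had 73 counts over all libraries against 34383 for Sfrp2.

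**Figure D3:**
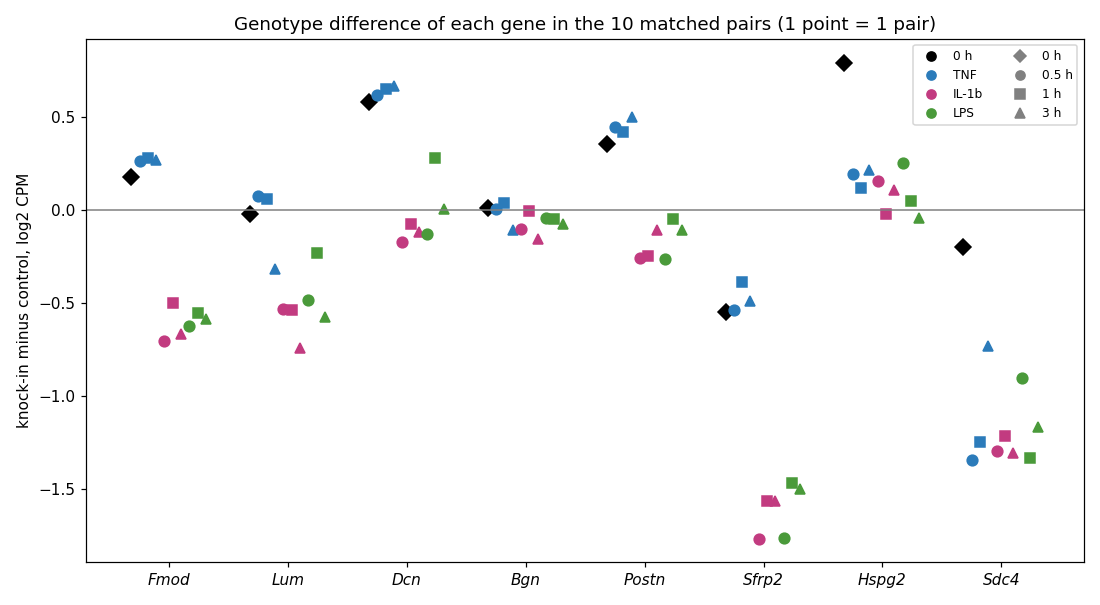
Knock-in minus control difference in log2 CPM (y axis) for each of the 8 genes (x axis), 1 point per matched pair, coloured by agent and shaped by time. For Fmod, Dcn and Postn the 0 h and TNF pairs lie above 0, for Sfrp2 and Sdc4 all 10 pairs lie below 0, and Bgn lies between -0.15 and 0.04.

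Seen over the 8 genes, the genotypes did not overlap in the 6 pairs with IL-1b or LPS for 2 genes (Fmod and Sfrp2, both lower in the knock-in), as for 1.91% of all genes tested. In the 4 pairs at 0 h or with TNF they did not overlap for 4 genes (Fmod, Dcn and Postn higher, Sfrp2 lower), as for 7.62% of all genes. The genes were chosen on such differences, so nothing is read from these counts. Between the library sets, 4 of the 8 genes did not overlap in the control (8.81% of all genes) and 6 in the knock-in (10.2% of all genes), which the choice also touches. In both genotypes and in the same direction this held for 2 genes, Bgn and Hspg2, against 4.67% of all genes.

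Responses averaged over genotype passed mostly for Hspg2 and Sdc4. At 0.5 h against 0 h, 2 of 8 rose (Hspg2 and Sdc4), where 2.9% of all genes tested were called higher, and at 1 h the same 2 rose, where 7.12% were. For IL-1b at 3 h, 3 of 8 rose (Bgn, Hspg2 and Sdc4), against 16.9% of all genes, and for LPS at 3 h the same 3 rose, against 29.2%. With library totals, LPS at 3 h called 2 of 8 higher (Hspg2 and Sdc4) and 3 lower, which were Dcn (-0.92), Lum (-0.51) and Sfrp2 (-0.95), and IL-1b at 3 h called 2 higher and 1 lower. TNF at 3 h called 1 of 8, Sdc4, as higher, against 18.7% of all genes. From 0.5 to 3 h, 4 of 8 rose (Lum, Bgn, Hspg2 and Sdc4), against 29.5%. Between agents at 3 h, LPS exceeded TNF for 3 of 8 (24.3% of all genes called higher; 2 higher and 2 lower with library totals), IL-1b exceeded TNF for 1 of 8 (7.89%) and LPS exceeded IL-1b for 2 of 8 (23.8%). For IL-1b and LPS against TNF at 0.5 h, 3 of 8 were called, Bgn and Hspg2 higher and Dcn lower, against 10.4% of all genes (5.24% higher and 5.13% lower). Taken per agent from 0.5 to 3 h, 3 of 8 rose with LPS (27% of all genes called higher), and none was called in either direction with IL-1b (21.8% of all genes) or TNF (31.8%), where 1 and 2 of the 8 had an unadjusted edgeR p under 0.05. The median log2 fold change of the 8 genes was 0.30 for LPS at 3 h against 0 h and 0.10 for TNF, beside medians of -0.01 and 0.00 over all genes.

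**Figure D4:**
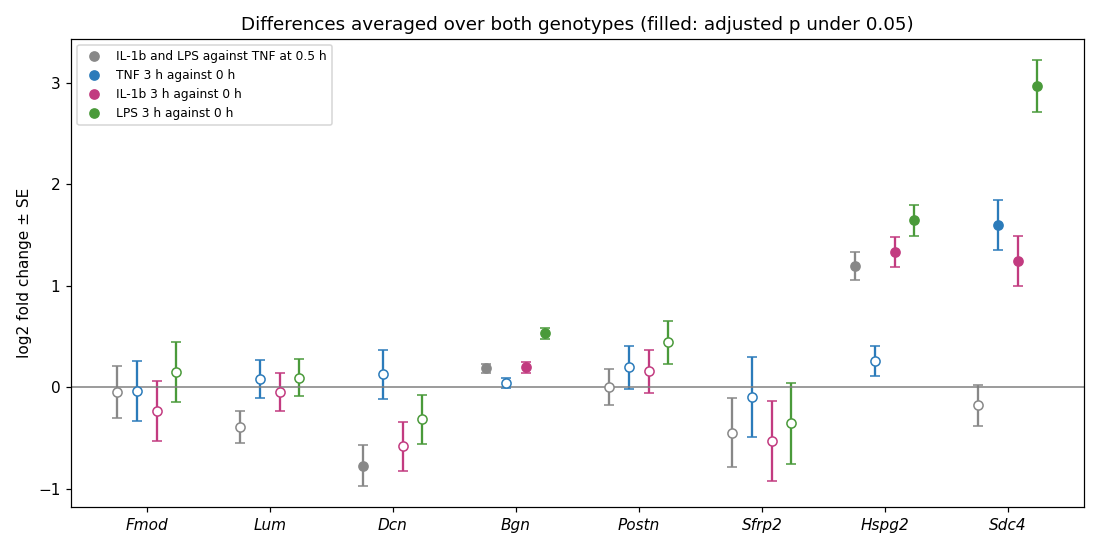
Log2 fold change averaged over both genotypes, with bars of 1 SE (y axis), for the 8 genes (x axis) in 4 contrasts, filled where the edgeR adjusted p was under 0.05. Sdc4 reaches 2.97 with LPS at 3 h, Hspg2 is 1.20 higher with IL-1b and LPS than with TNF at 0.5 h, and Fmod, Lum, Postn and Sfrp2 have no filled point.

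The other genes of these families were counted from lists, beside shares over all genes of 29.2% higher and 28.3% lower for LPS at 3 h and of 18.7% higher and 16% lower for TNF at 3 h. Of the remaining small leucine-rich proteoglycans, 11 of 13 were tested. With TNF at 3 h 1 was higher and 1 lower, and with LPS at 3 h Podn (podocan) was higher by 0.56 (SE 0.11, edgeR adjusted p = 0.00053) and Kera (keratocan) lower, at -0.97 (SE 0.24, edgeR adjusted p = 0.00382). With library totals Podn was at -0.041. Among 21 other proteoglycans tested, LPS at 3 h called 11 higher and 3 lower, and TNF called 4 higher and none lower. The neural proteoglycan gene Ncan had the largest change with LPS, at -2.86 (SE 0.59, edgeR adjusted p = 0.000929), and missed the threshold without the control LPS 3 h library (-2.47, edgeR adjusted p = 0.0734). LPS against 0 h crosses the library sets, so agent and set cannot be told apart there. At 0.5 h, IL-1b and LPS against TNF gave -4.96 to -2.33 for Ncan and -1.67 to -1.13 for Kera with 1 library left out. The Ncan call was lost without the control TNF 0.5 h library, at -2.42. Cd44, the hyaluronan receptor, rose by 2.36 with LPS (SE 0.33, edgeR adjusted p = 0.000139) and by 2.12 with TNF (SE 0.33, edgeR adjusted p = 0.00106). Of 38 enzymes that build or modify glycosaminoglycan chains, LPS at 3 h called 19 higher and 9 lower, and TNF 10 higher and 6 lower. Chst15, a chondroitin sulfate sulfotransferase gene, rose by 2.34 with LPS (SE 0.44, edgeR adjusted p = 0.000887), as did Dse, whose product makes dermatan sulfate, by 1.82 (SE 0.15, edgeR adjusted p = 8.56e-07). With TNF, Chst15 rose by 1.37 (SE 0.45, edgeR adjusted p = 0.0348), a call lost without 3 of the 4 libraries compared, with values from 0.59 (without the control TNF 3 h library) to 1.88. Papss2, which supplies the sulfate donor, rose with TNF by 1.12 (SE 0.20, edgeR adjusted p = 0.00145) and Xylt1, which starts the chains, by 0.98 (SE 0.17, edgeR adjusted p = 0.000934).

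Partners of perlecan in the basement membrane numbered 12, all tested. With LPS at 3 h 9 were higher and none lower, with a median log2 fold change of 0.64 beside -0.01 over all genes. TNF called none higher and 1 lower. LPS against 0 h crosses the library sets and TNF against 0 h does not, so these counts do not compare the agents alone. Within the IL-1b and LPS set, 9 were higher and none lower for LPS against IL-1b at 3 h (23.8% of all genes called higher). The same counts held for LPS from 0.5 to 3 h (27% of all genes called higher), both with TMM scaling. The laminin chain genes Lama5, Lama2 and Lamc1 had the largest values with LPS, at 1.63 (SE 0.23, edgeR adjusted p = 7.46e-05), 1.12 (SE 0.10, edgeR adjusted p = 4.69e-07) and 0.92 (SE 0.09, edgeR adjusted p = 1.27e-06). For IL-1b and LPS against TNF at 0.5 h, a contrast across sets, 4 were higher and none lower (5.24% and 5.13% of all genes). Lama5 was at 1.31 there (SE 0.20, edgeR adjusted p = 0.00181). Of 18 other matricellular genes, LPS at 3 h called 8 higher and 1 lower, and TNF 3 higher and 1 lower. With TNF the 3 were Ccn1 at 1.25 (SE 0.40, edgeR adjusted p = 0.0355), whose call was lost without 3 of the 4 libraries compared (0.57 without the knock-in TNF 3 h library), Ccn4 at 1.12 (SE 0.10, edgeR adjusted p = 2.84e-05) and Tnc. Tnc (tenascin-C) rose by 1.81 with LPS (SE 0.11, edgeR adjusted p = 1.21e-08) and by 0.86 with TNF (SE 0.10, edgeR adjusted p = 9.87e-05), and Sparcl1 was the one lower with LPS, at -1.56 (SE 0.19, edgeR adjusted p = 9.66e-06). Among 7 ADAMTS proteases that can cleave proteoglycans, LPS called 2 higher, Adamts8 at 3.28 (SE 0.56, edgeR adjusted p = 0.000265) and the aggrecanase Adamts4 at 2.64 (SE 0.32, edgeR adjusted p = 4.39e-05), and 1 lower. Of 9 secreted Wnt regulators tested of 12 (inhibitors and R-spondins), LPS called 2 higher and 1 lower and TNF none higher and 2 lower, with the R-spondin gene Rspo3 at -0.98 with TNF (SE 0.10, edgeR adjusted p = 5.96e-05).

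The split of these lists depends on the scaling for LPS at 3 h. With library totals, LPS called 5 higher and 11 lower of the other proteoglycans, 6 and 24 of the chain enzymes, 1 and 13 of the matricellular genes, and 3 and 4 of the basement membrane partners, where 12.2% of all genes were called higher and 65% lower. With upper-quartile scaling these were 7 and 7, 10 and 13, 2 and 6, and 7 and 0, against 18.6% and 45.7% of all genes. With library totals the TNF splits were 3 and 4 for the proteoglycans and 6 and 7 for the chain enzymes, against 11.2% and 26.4% of all genes. The named values for Cd44, Chst15, Dse, Lama5, Lama2, Lamc1, Tnc, Adamts4 and Adamts8 with LPS kept their direction and their call under each scaling.

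Between genotypes these lists were tested, though they too were drawn up with earlier results of these data known. Over the 10 pairs, 15.8% of all genes were called, 7.99% higher and 7.81% lower. The knock-in was called higher for 2 and lower for 4 of the 11 small leucine-rich proteoglycans, with Tsku (tsukushi) at -0.66 (SE 0.13, edgeR adjusted p = 0.00759) and Epyc (epiphycan) at -0.61 (SE 0.14, edgeR adjusted p = 0.0117). It was higher for 1 and lower for 4 of the 21 other proteoglycans, among them the neural proteoglycan genes Ncan at -2.40 (SE 0.24, edgeR adjusted p = 2.03e-05) and Bcan at -1.41 (SE 0.31, edgeR adjusted p = 0.00671). Of the 38 chain enzymes 3 were higher and 4 lower. Of the 18 matricellular genes 8 were higher and 4 lower, with Ccn2 at 0.68 (SE 0.19, edgeR adjusted p = 0.0335), a call lost without any one of 11 of the 20 libraries, and the thrombospondin genes Thbs1 at 0.58 (SE 0.12, edgeR adjusted p = 0.00768) and Thbs2 at 0.55 (SE 0.06, edgeR adjusted p = 5.22e-05). Of the 12 basement membrane partners 6 were higher and 1 lower, with Lama2 at 0.41 (SE 0.04, edgeR adjusted p = 2.31e-05) and the collagen IV genes Col4a2 and Col4a1 at 0.38 (SE 0.05, edgeR adjusted p = 0.000195) and 0.36 (SE 0.05, edgeR adjusted p = 0.000214). Of the Wnt regulators, none was higher and 2 were lower, with Rspo2 at -0.43 (SE 0.07, edgeR adjusted p = 0.00102), and of the proteases 1 was lower, Adamts8, at -1.58 (SE 0.28, edgeR adjusted p = 0.00223). A genotype difference that was not the same in the 9 stimulated pairs as at 0 h was called by edgeR for none of the listed genes and for none of the genes tested (0%), where 450 genes had an unadjusted p under 0.05 and DESeq2 called 6. That comparison rests on the 0 h pair alone and pools the agents, so the absence of calls does not show that responses were alike. Markers of other cell types also differed between genotypes. All 4 pericyte markers were called higher in the knock-in, with a summed level of 27.8 to 64.2 CPM there and 12.1 to 37.2 CPM in the control. Of 6 cartilage markers tested 3 were called lower and none higher, with a median log2 difference of -0.72, and their sum was 60.7 to 122 CPM in the knock-in and 94.0 to 150 CPM in the control. Tendon markers were called higher for 3 and lower for 1 of 4 (60.9 to 81.5 against 52.3 to 64.1 CPM), and fibroblast markers higher for 4 of 8. Of 5 neural and Schwann cell markers tested, 1 was called lower and none higher, with a median log2 difference of 0.26. At 0 h or with TNF their sum was 19.5 to 26.1 CPM in the knock-in and 31.7 to 65.5 CPM in the control. With IL-1b or LPS it was 5.78 to 6.94 CPM and 12.2 to 19.2 CPM. The part of these markers in the genotype differences was not tested.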

How the data were processed

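For the 20 libraries the authors deposited unnormalized counts of reads per gene in a single table, with gene coordinates and gene length in bases. Reads were handled with cutadapt 1.12, STAR and featureCounts 1.5.1 on build mm10, and DESeq2 is also named, per the submitters' processing notes. No source used here gives the STAR or DESeq2 version, the strand setting or the annotation release. Counts of overlapping genes and close copies are uncertain on that account. Per the labels' protocols, libraries were stranded and polyA selected.

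A gene was tested if 2 or more libraries had 1 CPM or more (14023 genes, 99.9% of counts). Tests were quasi-likelihood F tests in edgeR 4.0.16 (TMM scaling, robust, R 4.3.3) of a model with genotype and condition over all 20 libraries (9 residual degrees of freedom), so the genotypes served as repeats of a condition. A response that differs between genotypes enters the spread, and the genes described were chosen for such differences. P-values were adjusted by Benjamini-Hochberg over all genes tested, with a threshold of 0.05. Levels are TMM-scaled CPM, and per-library log2 values use a prior count of 2. SE is the log2 fold change over the square root of F.

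On counts simulated for LPS at 3 h against 0 h (13684 genes, dispersion 0.01), the fit called 99 of 100 genes changed by 1 on the log2 scale and 100 of 100 changed by 2, with 7 false calls. Real libraries may vary more. The simulated counts held no genotype difference and no library sets. Those rates therefore do not carry over to genes chosen, as here, for a varying genotype difference. Alternatives were other scalings, DESeq2 1.42.0, limma-voom 3.58.1, no filter, and each library left out. Fits within a library set and the 3 h against 0.5 h contrasts per agent were added after seeing the data. A fit within a set leaves out how the genotype difference varies between sets, and the genes were chosen on such variation. Its p-values are therefore not independent of that choice, and it has fewer than 9 residual degrees of freedom. The genes, lists and contrasts were chosen with earlier results of these data known. From each list the text names up to 3 genes, taken in order of the size of change among the genes called, and for each of the 8 genes the 3 with the highest Pearson r. Promoter sequences are from RefSeq (GRCm38.p6), which had an entry for 6 of the 8 genes and not for Dcn and Lum. Counting depth limits low counts only, and PCR copies cannot be told apart.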

Additional observations from a re-analysis of the deposited data

Results flagged for a closer look

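For 3 genes the knock-in minus control difference in log2 CPM had one sign in every pair under one agent and the other sign in every pair under another. These differences were not tested, and the genes had been chosen for such behaviour. The mean over the 3 times for Fmod was -0.62 with IL-1b, -0.59 with LPS and 0.27 with TNF, so that IL-1b minus TNF was -0.89 and LPS minus TNF was -0.86. For Postn the means were -0.20, -0.14 and 0.46, which gave -0.66 for IL-1b minus TNF and -0.59 for LPS minus TNF. Dcn had means of -0.12 with IL-1b and 0.65 with TNF, a difference of -0.77. The agents also separate the library sets, and agent and set cannot be told apart.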

How the results depend on the processing

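The 3 h against 0.5 h contrasts per agent were not recomputed, so the calls of Bgn, Hspg2 and Sdc4 with LPS alone there are unchecked. Of the 24 called values of the 8 genes in the other contrasts, recomputed 313 times in all, 284 kept sign and call, 26 lost the call and 3 changed sign. The other 56 values, recomputed 703 times, were of opposite sign 90 times and past the threshold 35 times, 2 of these with the opposite sign. The 3 called values that changed sign were Bgn with library totals: -0.070 for LPS at 3 h against 0 h, -0.062 for 3 h against 0.5 h and -0.11 for LPS against IL-1b. Uncalled values of opposite sign that the text gives were those for LPS against IL-1b with library totals, at -0.13 for Hspg2, -0.057 for Fmod, -0.18 for Dcn and -0.16 for Postn, and those for TNF at 3 h against 0 h with 1 library left out, which ranged from -0.054 (control 0 h) to 0.62 (knock-in 0 h) for Hspg2 and from -0.065 (knock-in TNF 3 h) to 0.41 (control TNF 3 h) for Postn. Podn with LPS at 3 h was -0.041 with library totals. Counts of the 8 genes called that moved with library totals were 5 for LPS at 3 h (2 higher and 3 lower, where all 3 as reported were higher), 1 for 3 h against 0.5 h (4 as reported) and 1 for LPS against IL-1b (2 as reported). Library totals moved the median of all genes to -0.62, -0.24 and -0.44 in these contrasts. With upper-quartile scaling the counts were 2 for 3 h against 0.5 h and 2 for IL-1b against TNF (1 as reported), which was also 2 by DESeq2 and 3 by limma-voom. With no filter, 1 was called at 0.5 h (2 as reported). Leaving out 1 library gave 0 to 2 at 0.5 h, 1 to 2 for TNF at 3 h and for IL-1b against TNF, and 1 to 3 for IL-1b and LPS against TNF at 0.5 h. Within a library set alone, TNF at 3 h called 2, where 2514 of all genes were called higher and 2397 lower. LPS against IL-1b called 6, where 3340 of all genes were called higher and 3023 lower. The choice of the 8 genes touches both of these counts. The causes of these shifts were not tested. The genotype difference in stimulated against unstimulated pairs called 1 listed gene by DESeq2 (0 as reported). Of 47 values of other genes, recomputed 750 times, 708 kept sign and call, 41 lost the call and 1 changed sign. Ranks by RefSeq transcript length were not run. With GENCODE principal transcripts, chosen after seeing the data, all 8 ranks of the medians over the 20 libraries were as given. In the control alone, Sfrp2 at a median of 104 CPM per kb was then above Hspg2 at 103, the reverse of the order given. The genotypes were compared within each condition, which is a term of the model. No paired analysis by replicate number was possible because the labels give none.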
